A study of Mus with 5 samples.

Results

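The genes described here are the 10 that lie at the 2 strongest sites of retinoic acid receptor α (RARα) shared between CD8 T cells kept without and with retinoic acid (RA). They are Osgin1, Mlycd, Mbtps1 and Hsbp1 at one site, and Adprhl1, Tmco3, Lamp1, Grtp1, Cul4a and Dcun1d2 at the other, out of 12769 gene names in the peak lists. A RARα control peak was taken as shared when a RARα peak of the RA list lay within 5 kb, and the 2 of highest fold enrichment over IgG among the 120 shared ones were chosen. The members were thus chosen on the RARα values of both conditions, which are given below as a description and without a test. The annotation in the lists named 4 more genes at these sites, Slc38a8, Necab2, Mir7065 and Mir1968, which were not followed.

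Binding had been measured by chromatin immunoprecipitation followed by sequencing (ChIP-seq), which recovers the DNA fragments held by a protein. Naive CD8 T cells from the spleens of wild-type mice were stimulated through CD3 and CD28 in the presence of IL-2 (24 h), rested in IL-2 alone at 100 U/ml (24 h) and then given RA at 50 nM or left untreated (control) for 1 h. The treatment field of the labels names other interleukins, a different one for each ChIP sample. Each factor had 1 peak list per condition, called on 2 pooled ChIP files against the same IgG file. The labels do not say whether the 2 files were separate samples or runs of 1 sample, or whether the cells for IgG had received RA. No spread between replicates can therefore be given, no test between conditions was run, and differences in the efficiency of the single pools cannot be told apart from an effect of RA. The RARα pools held 22655611 fragments (control) and 22475060 (RA), the BATF pools 23110180 (control) and 16424269 (RA), and the IgG library 11410673. RNA was not measured in this series, so the cell type could not be checked by expression. Among marker genes, BATF control peaks named 6 of 7 genes of CD8 T cells (none named Trac), 4 of 4 of B cells and 1 of 3 of myeloid cells. Since they named 46.2% of all protein-coding genes, these counts say nothing of the cell type.

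RARα is a nuclear receptor that binds DNA as a pair with a retinoid X receptor. In general it holds co-repressors at its sites without ligand and exchanges them for co-activators when RA binds. BATF belongs to the AP-1 family, pairs with JUN proteins and acts together with IRF factors at genes of activated and effector T cells.

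The first site lies on chromosome 8 of mm10 between Mlycd and Osgin1, at chr8:119423639-119424246 in the RARα control list. It was classed as intergenic by the authors and is 1801 bp from Mlycd and 1636 bp from Osgin1. In the RefSeq gene table it lies inside the lncRNA gene Gm32006, which spans 119415104 to 119429562. The second site lies 106 Mb away on the same chromosome, between Grtp1 and Adprhl1, at chr8:13213308-13214155. It was also classed as intergenic, 12542 bp from Grtp1 and 4633 bp from Adprhl1, and no gene of the table overlaps it. The sites are called here the Osgin1-Mlycd site and the Adprhl1-Grtp1 site after the genes on either side. In the RARα control list 43.8% of all peaks were intergenic.

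At the Osgin1-Mlycd site, 131 RARα fragments lay over the summit in the control pool and 53 with RA, with fold enrichments of 29.3 and 11.5. BATF had 39 fragments at its summit in the control pool and 26 with RA, with folds of 8.59 and 7.72. RARα was thus high without RA and lower with it, while the BATF folds were close to each other. The summits of all 4 lists lay within 21 bp of the RARα control summit.

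At the Adprhl1-Grtp1 site, RARα had 152 summit fragments in the control pool and 58 with RA, with folds of 19.2 and 7.47. BATF had 135 and 105, with folds of 13.4 and 14.2. In the control the BATF summit held nearly as many fragments as the RARα summit, and the BATF fold was slightly higher with RA where that of RARα was lower. The RARα summits were 9 bp apart, and the BATF summits lay 47 bp and 63 bp from the RARα control summit.

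Pools of different depth can be compared by the summit fragments scaled to 1000000 fragments of the pool (FPM), given with exact 95% Poisson intervals that cover counting error only. For RARα the height at the Osgin1-Mlycd site was 5.78 FPM in the control (4.83 to 6.86) and 2.36 with RA (1.77 to 3.08). At the Adprhl1-Grtp1 site it was 6.71 (5.68 to 7.86) and 2.58 (1.96 to 3.34). The RARα heights of the sites were close to each other within each condition. Since the sites were chosen on their RARα values, this likeness is a description and was not tested.

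BATF heights at the Osgin1-Mlycd site were 1.69 FPM in the control (1.20 to 2.31) and 1.58 with RA (1.03 to 2.32), a ratio of 0.938 with an exact interval of 0.548 to 1.58. At the Adprhl1-Grtp1 site they were 5.84 (4.90 to 6.91) and 6.39 (5.23 to 7.74), a ratio of 1.09 with an interval of 0.840 to 1.42. Both intervals include 1 and leave room for changes in either direction. They cover counting error only and not the spread between replicates, so they are no test of an effect of RA on BATF. BATF was higher at the Adprhl1-Grtp1 site than at the Osgin1-Mlycd site in both conditions, with intervals that did not overlap.

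**Figure D1:**
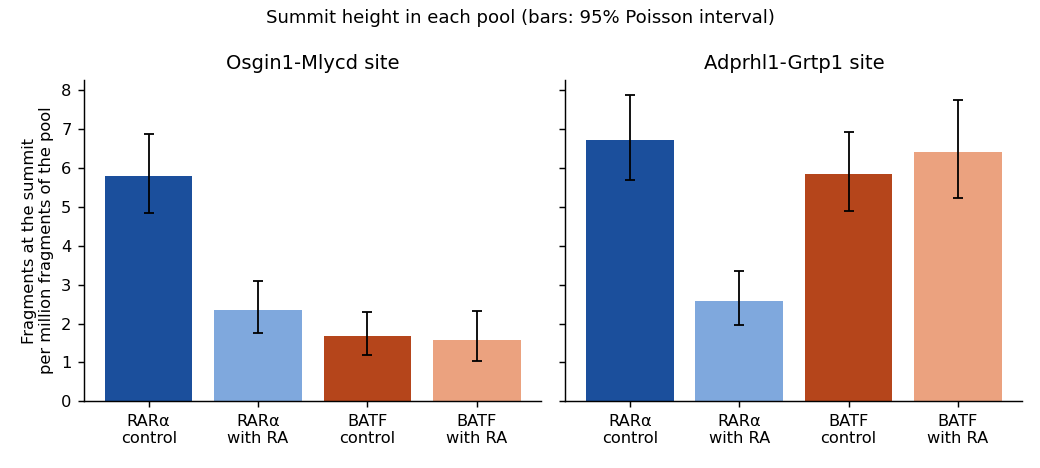
Fragments at the summit scaled to 1000000 fragments of the pool (FPM, vertical axis) at the Osgin1-Mlycd site (left) and the Adprhl1-Grtp1 site (right), 1 bar per pool, with exact 95% Poisson intervals for counting error. RARα stood at 5.78 and 6.71 FPM in the control and at 2.36 and 2.58 with RA, whereas BATF stood at 1.69 and 1.58 on the left and 5.84 and 6.39 on the right.

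The local IgG level that the peak caller used was recovered from the fold and the pileup. It need not be the IgG signal at the peak itself. It was 1.22 times the background of the RARα control list at the Osgin1-Mlycd site, a level reached by 42.6% of the peaks in that list. At the Adprhl1-Grtp1 site it was 2.41 times the background in the RARα control list and 3.15 times in the BATF control list, reached by 6.83% and 8.07% of their peaks. Fold enrichment is relative to this level, so the Adprhl1-Grtp1 site had the lower RARα fold although it had more fragments. The part of this raised IgG level in the heights of the 4 pools was not tested.

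Within the RARα control list of 1172 peaks, the Osgin1-Mlycd site ranked 1 by fold and the Adprhl1-Grtp1 site ranked 2, at 9.47 and 6.23 times the list median of 3.09. The third shared peak, just outside the choice, was on chromosome 6 from 89042557 to 89043426 at Gm1965 and 4933427D06Rik, with a control fold of 16.5 and an RA fold of 9.86. The fourth, in an intron of Ncoa3, which codes for a nuclear receptor co-activator, had 13.3 and 6.62. In the whole control list, 2 peaks without an RA partner ranked among these, one at Lig1 with 17.8 (rank 3) and one at Art2b with 13.8 (rank 5). In the RA list of 597 peaks the Osgin1-Mlycd site again ranked 1 by fold, and the Adprhl1-Grtp1 site ranked 7. In the BATF lists the order of the sites was the reverse. The Adprhl1-Grtp1 site ranked 795 of 15812 in the control and 407 of 9899 with RA, and the Osgin1-Mlycd site ranked 2621 and 1869.

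The RARα fold with RA was 39.4% of the control fold at the Osgin1-Mlycd site and 38.8% at the Adprhl1-Grtp1 site. Across the 120 shared pairs (10.2% of the control peaks had an RA peak within 5 kb, and 19.6% of the RA peaks had a control peak) the median ratio was 0.823, with quartiles of 0.640 and 1.09. Some of these pairs lie on an unplaced scaffold with low folds, such as 1.40 in the control and 1.49 with RA. In others a weaker control peak was paired with the RA peak of a stronger neighbour, as at Lef1 (2.58 in the control, 6.08 with RA). Both kinds enter the median and quartiles, and their effect on these was not tested. Only 2 pairs had a lower ratio than the Osgin1-Mlycd site and 1 had a lower ratio than the Adprhl1-Grtp1 site. Choosing sites by a high control fold favours low ratios of this kind, and all 10 of the shared pairs with the highest control fold, these sites among them, had a lower fold with RA, at 38.1% to 83.9% of control. Among the 11048 BATF pairs the median ratio was 0.870. Of these pairs, 54.1% had a lower ratio than the Osgin1-Mlycd site (0.898) and 72.4% had a lower ratio than the Adprhl1-Grtp1 site (1.06). By fold, both sites thus lay between the quartiles of the BATF pairs, 0.709 and 1.09. By the ratio of heights in FPM, 57.7% and 75.4% of the pairs were lower.

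**Figure D2:**
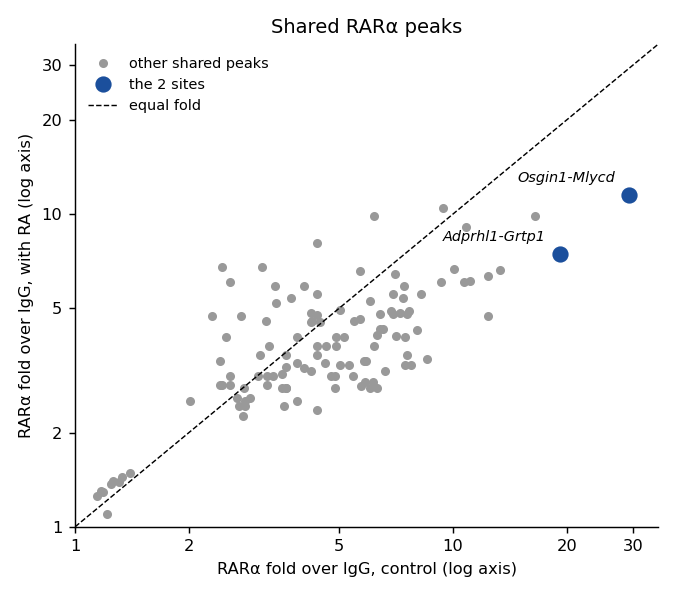
RARα fold enrichment over IgG with RA (vertical, log axis) against that in the control (horizontal, log axis) for the 120 shared RARα peaks, 1 point each, with the line of equal fold dashed and the 2 sites in blue. The sites lie farthest to the right, at 29.3 and 19.2 in the control, and below the line, at 11.5 and 7.47 with RA.

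The balance of the factors differed between the sites. RARα height in FPM divided by BATF height in FPM in the control was 3.43 at the Osgin1-Mlycd site, higher than at any other of the 726 RARα control peaks with a BATF control peak within 5 kb. It was 1.15 at the Adprhl1-Grtp1 site, and 27 of the 726 pairs had a higher value. The median over these pairs was 0.448. The antibodies differ, so the value compares sites and not amounts of protein, and the choice of sites by RARα fold favours high values. The RARα and BATF control summits were 18 bp and 47 bp apart at the sites, against a median of 147.5 bp over all 726 pairs. These pairs include peaks that do not overlap. The sites were also chosen as strong RARα peaks, with 131 and 152 fragments against a list median of 13. The summit distances are thus not compared at like peak strength.

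Over all 10 genes the lists held 3 RARα control peaks, 2 RARα peaks with RA, 7 BATF control peaks and 5 BATF peaks with RA that named at least 1 of them. Every member is named by the site peak in each list, so the count of genes named is fixed by the annotation, which can name a gene far from a peak. The distance from the site to the gene ranged from 1636 bp (Osgin1) to 83905 bp (Mbtps1), and was over 10 kb for 7 of the 10. Peaks away from the sites named 1 member in the RARα control list, 0 in the RARα RA list, 5 in the BATF control list and 3 in the BATF RA list. Over all protein-coding genes of the RefSeq table, 6.85%, 3.05%, 46.2% and 36.4% were named in these lists, so the members' counts lie near the background. Of the 5 named in the BATF control list, 4 were named by the same peak, 3993 bp from the Osgin1-Mlycd site.

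**Figure D3:**
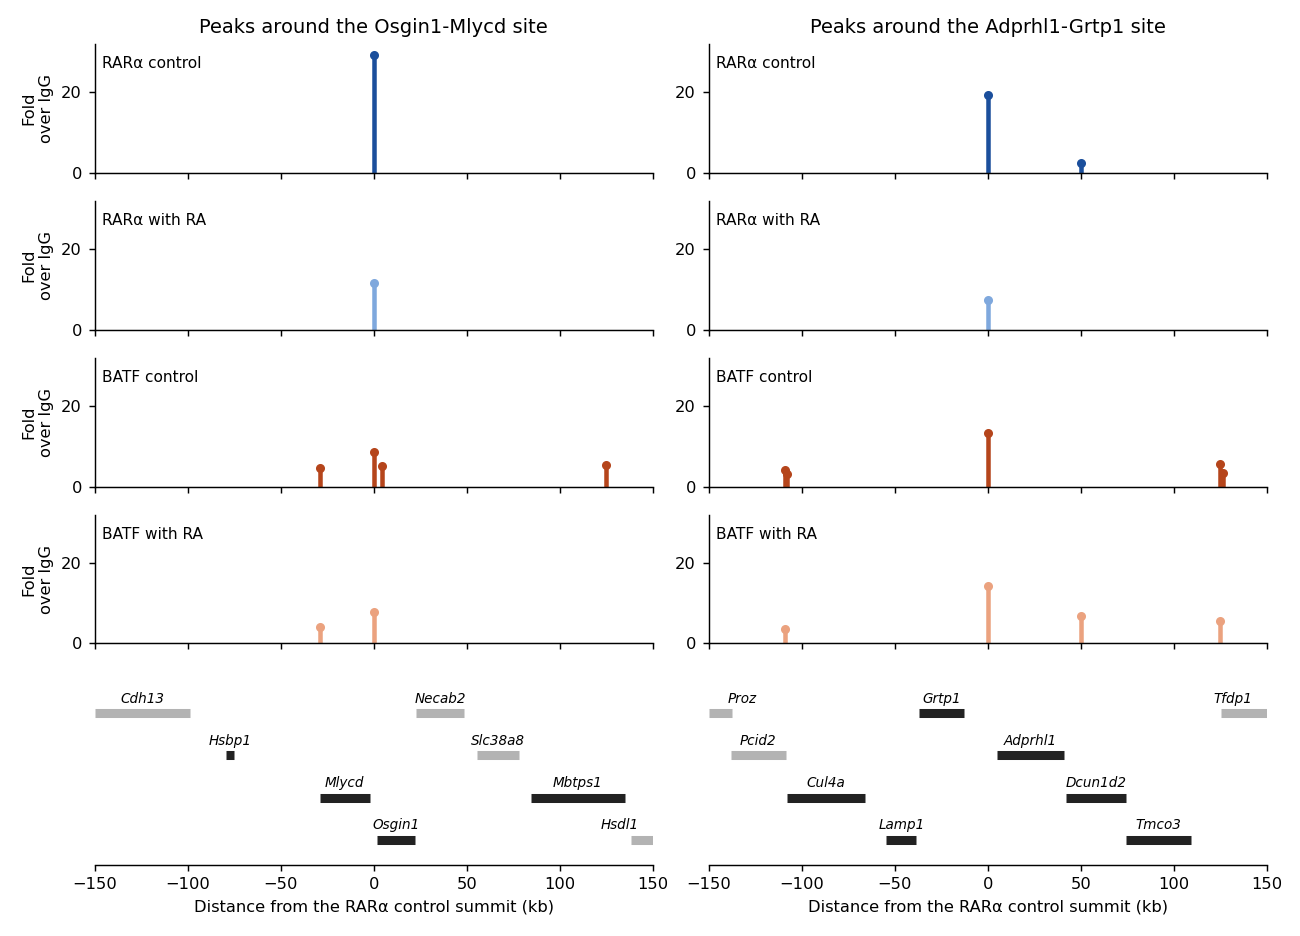
Every peak within 150 kb of the Osgin1-Mlycd site (left) and the Adprhl1-Grtp1 site (right), with distance from the RARα control summit in kb (horizontal) and fold enrichment over IgG (vertical) in each of the 4 lists. The lowest panels show protein-coding genes, with members in black and others in grey. RARα peaks stood at the sites (29.3 and 19.2 in the control) and at 1 weaker place in Dcun1d2 (2.52), whereas BATF peaks also stood at Mlycd, Mbtps1, Cul4a and other genes.

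Of the genes at the Osgin1-Mlycd site, Osgin1 codes for an oxidative stress-induced growth inhibitor and is known as a target of the stress factor NRF2. It spans 119425882 to 119446257, and a further BATF control peak lay inside this span, at 119428239 to 119428591, where 19 fragments gave a fold of 5.12. The authors' annotation classed that peak as intergenic and named all 4 genes of the site for it. No BATF peak of the RA list overlapped it. At 0.822 FPM it was not far above the smallest summit that the RA list held at a like IgG level (within 10%), which was 0.609 FPM, so its absence from the RA list lies near the limit of detection.

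Mlycd codes for malonyl-CoA decarboxylase, which removes the metabolite that holds back entry of fatty acids into mitochondria. Its promoter carried a BATF peak in both conditions, of 23 fragments in the control (fold 4.74, 119394689 to 119395165) and of 15 with RA (fold 4.13, 119394852 to 119395256, classed as promoter and placed in exon 1 of 5). These summits were 0.995 FPM and 0.913 FPM. RARα had no peak at this promoter, and its nearest control peak was that of the site, 28474 bp away.

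Mbtps1 codes for site-1 protease, which cleaves SREBP and ATF6 precursors in the Golgi. In its intron 1 of 22, a BATF control peak at 119548602 to 119548899 reached a fold of 5.37 on 20 fragments (0.865 FPM). No RA peak was listed in that intron, again against a smallest listed summit of 0.609 FPM. Hsbp1 codes for a protein that binds and restrains heat shock factor 1. It lies 74710 bp from the site and had no peak inside its body in any list, the nearest BATF control peak being 45760 bp away at Mlycd.

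At the Adprhl1-Grtp1 site, the nearest gene Adprhl1 codes for a member of the ADP-ribosylhydrolase family that is known from heart muscle. Grtp1 codes for a TBC domain protein of the kind that switches off Rab GTPases. Lamp1 codes for a lysosomal membrane glycoprotein, also called CD107a, that reaches the surface of cytotoxic T cells when they release their granules. Tmco3 codes for a membrane protein. None of these 4 genes had a peak inside its body in any list. The site lay 37970 bp from Lamp1 and 73858 bp from Tmco3, and no peak of any list lay closer to Lamp1 than those at the site.

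Cul4a codes for the scaffold of a cullin-RING ubiquitin ligase. Its promoter, shared in the annotation with Pcid2, carried 2 BATF control peaks, at 13104670 to 13105184 (33 fragments, fold 4.20) and at 13105503 to 13105898 (22 fragments, fold 3.25). The RA list had 1, at 13104829 to 13105247 (18 fragments, fold 3.57). These folds were low for their lists, with 22.9%, 5.17% and 8.58% of peaks below them.

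Dcun1d2 codes for a protein that promotes the attachment of NEDD8 to cullins, and was the member with a RARα peak inside its body. That peak, in intron 4 of 6 at 13263337 to 13263676, had 14 control fragments, a fold of 2.52 and a -log10 p of 3.68, which is near the cutoff of 0.001, and 7.08% of the control peaks had a lower fold. The RARα RA list had none there. Its smallest listed summit at a like IgG level was 0.578 FPM, just under the 0.618 FPM of the control peak. BATF had a peak at the same place in the RA list only, at 13263476 to 13263716, where 25 fragments (1.52 FPM) gave a fold of 6.70. The BATF control list held summits down to 15 fragments (0.649 FPM) at a like IgG level, and none was listed here. The RARα and BATF calls at this intron thus came from opposite conditions, each from 1 pool.

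Of the 3 RARα control peaks that named a member, 2 had a BATF control peak within 5 kb (61.9% of all RARα control peaks did) and all 3 had a BATF peak of the RA list within 5 kb (54.3% of all). Both RARα peaks of the RA list lay on a BATF peak of the RA list, which 16.4% of all RARα RA peaks had within 5 kb. Among the 117 RARα RA peaks with a RARα control peak within 5 kb, the kind to which these belong, it was 74 (63.2%). Of the 7 BATF control peaks, 6 had a BATF RA peak within 5 kb (69.9% of all), but only 4 overlapped one. The peak inside Osgin1 lay 4158 bp from its nearest BATF RA peak, which was that of the site. The second Cul4a promoter peak lay 256 bp from its nearest. Of the 5 BATF RA peaks, 4 had a BATF control peak within 5 kb (96.3% of all), the exception being that in Dcun1d2. Of the BATF peaks, 3 of the 7 in the control list (7.16% of all) and 3 of the 5 in the RA list (8.15% of all) were within 5 kb of RARα control binding, a nearness that the choice of genes by their RARα sites favours. With so few peaks these counts are descriptions.

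**Figure D4:**
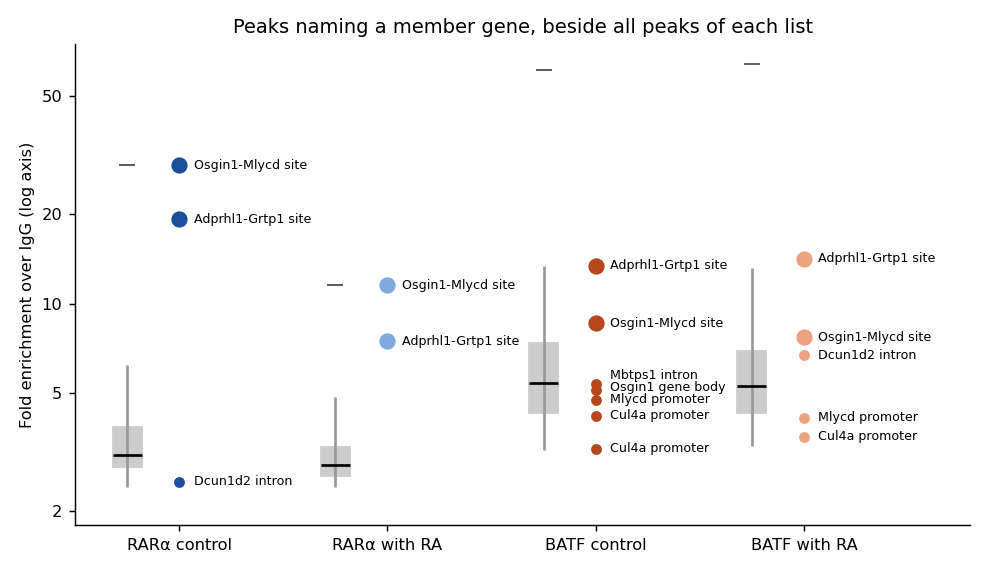
Fold enrichment over IgG (vertical, log axis) of each peak that names a member gene in the 4 lists, with large points for the 2 sites and small points for peaks away from them. Grey boxes show the quartiles of all peaks in the list, black lines the median, grey lines the 5th to 95th percentile and dashes the maximum. The RARα folds of 29.3 and 19.2 in the control stand far above the list median of 3.09. The BATF peaks away from the sites, from 3.25 to 6.70, lie on both sides of the BATF medians of 5.40 and 5.29.

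A RARα control peak had partners within 5 kb in all 3 other lists at 72 places, which is 6.14% of the control list but 72 of the 120 shared peaks from which the sites were chosen. Likeness to each site was measured over the 4 lists as the distance between log2 fold enrichments. Nearest to the Osgin1-Mlycd site was the intron of Ncoa3, at a distance of 1.54, followed by the intergenic peak named for Kdm8, Il21r, Nsmce1 and Il4ra at 1.74 and the intron of Galm at 1.85. The Adprhl1-Grtp1 site itself was closer than these, at 1.39. Nearest to the Adprhl1-Grtp1 site were introns of Lef1, a transcription factor of naive and memory T cells, at 0.916 and of Nedd9, an adaptor of integrin signalling, at 1.11. At Lef1 the RARα folds were 10.7 (control) and 6.08 (RA), and the BATF folds were 13.1 and 12.4. With the Osgin1-Mlycd site left out of the order, the next was the peak named for Kdm8 and its neighbours, at 1.43.

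**Figure D5:**
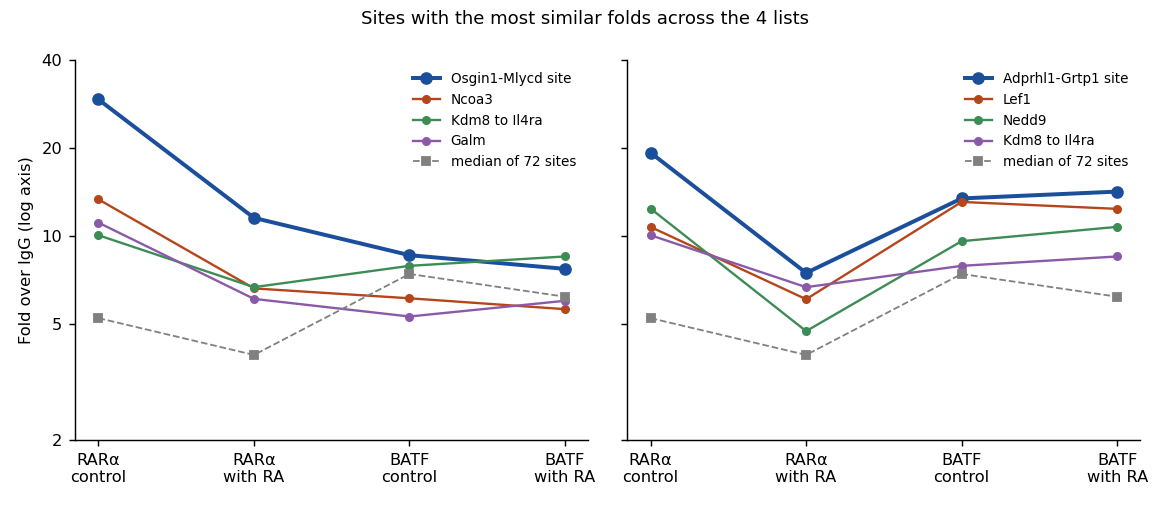
Fold enrichment over IgG (vertical, log axis) in the 4 lists for the Osgin1-Mlycd site (left) and the Adprhl1-Grtp1 site (right) in blue, with the 3 other sites of most similar folds in colour and the median of 72 sites dashed in grey. Lines join the values of 1 site. On the left the RARα control fold of 29.3 lies well above that of the nearest site, Ncoa3, at 13.3, and on the right the BATF folds of 13.4 and 14.2 lie close to those of Lef1, at 13.1 and 12.4.

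Genes of related function were counted in 8 lists of 61 non-member genes. RARα control peaks named 7 of the 61 (11.5%, against 6.85% of all protein-coding genes) and RARα RA peaks named 3 (4.92%, against 3.05%). BATF peaks named 50 in the control (82.0%, against 46.2%) and 42 with RA (68.9%, against 36.4%). The 61 genes were picked by function and not matched to the background genes, so these differences say nothing particular of related function. Among TBC domain genes, related to Grtp1, 3 of 7 were named by RARα control peaks and 0 by RARα RA peaks. This control share of 42.9% was the highest of the 8 lists, rests on few genes and was not tested. The strongest of these RARα control peaks lay 3006 bp from Tbc1d5, with 86 fragments and a fold of 10.9. It had no BATF control peak within 204305 bp. The others were at Tbc1d10a with a fold of 4.91, 73640 bp from the gene, and at Tbc1d1 with 3.19, 6335 bp from the gene.

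Among 10 NRF2 and oxidative stress genes, related to Osgin1, the RARα control list named only Keap1, the sensor that holds NRF2 in check, by a peak 68198 bp away with a fold of 4.64. Among 13 cullin and neddylation genes, related to Cul4a and Dcun1d2, it named Cul3 by a peak 97842 bp away with 3.35, and the RA list named Cul5 by an intron peak with 2.53. Lyst, a regulator of lysosome traffic, was named among 7 lysosomal and degranulation genes related to Lamp1, with folds of 3.22 (control) and 2.53 (RA) at different places. Macrod2 was named among 4 ADP-ribosylhydrolase genes, by intron peaks of 3.09 (control) and 2.43 (RA), also at different places. No RARα peak of either list named any of the 6 malonyl-CoA and fatty acid oxidation genes. The same held for the 8 site-1 protease and SREBP genes and the 6 heat shock factor genes. Over all protein-coding genes, RARα peaks named 6.85% (control) and 3.05% (RA), so none among so few genes lies near the background. BATF control peaks named 5, 6 and 5 of the genes in these lists. That list holds 15812 peaks against 1172 for RARα control, and named 46.2% of all protein-coding genes.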

How the data were processed

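The authors aligned paired-end reads with Bowtie2 to mm10. Per the file headers, MACS 2.2.7.1 was run on de-duplicated alignments, 2 pooled ChIP files per condition against 1 IgG file, at a p-value of 0.001 (RARα) or 1e-05 (BATF). The deposited pileup is a signal, fragments at the summit, scaled to 0.9875 per fragment in the BATF control list alone and converted back here. The deposited fold enrichment is a ratio, pileup plus 1 over local IgG level plus 1, from which that level was recovered. The deposited p-values and q-values are on the -log10 scale. Per the file headers no q-value was computed, yet the column is filled, so its origin is unclear and it served only as an alternative threshold. Genes and classes were assigned by the authors, and names were matched exactly. Gene positions came from RefSeq for GRCm38.p6, the assembly behind mm10, which held at least 99.6% of the names in each list. Peaks were paired within 5 kb, as in the study's methods. The overlap, recovery and interval steps were tested on simulated data. The members and lists were chosen with earlier results of these data known. Named were all members, the shared peaks ranked 3 and 4, the 3 sites most like each site, and genes of the related lists with a RARα peak. Lig1 and Art2b were added after their values were seen. Intervals cover counting error only. Sequences of the sites were not analysed here. The software was Python 3.11.15 with scipy 1.17.1, pandas 2.3.3, matplotlib 3.10.9 and numpy 2.4.6.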

Additional observations from a re-analysis of the deposited data

Results flagged for a closer look

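At the Adprhl1-Grtp1 site the RARα fold was lower with RA, whereas the BATF fold stayed close to its control value. From control to RA, the BATF fold went from 13.4 to 14.2 and the RARα fold from 19.2 to 7.47. The difference between the factors was not tested, since there is 1 pool per condition, and the counting interval of the BATF ratio includes 1.

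In intron 4 of Dcun1d2 a BATF peak with a fold of 6.70 was listed with RA and none in the control, whereas a RARα peak with a fold of 2.52 was listed in the control and none with RA. This difference was not tested either, and the RARα peak had 14 fragments.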

How the results depend on the processing

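No paired analysis was possible because the ChIP files of each condition had been pooled into 1 list. Of 40 values recomputed under an alternative, 33 were unmoved, 7 moved and 0 changed direction. Unmoved meant within 1.5 times for a count, within the counting interval for a ratio and the same position for a rank. Some values could not move, since the BATF lists had already been called at a p-value of 1e-05. The RARα ratios, ranks and overlaps rest on values by which the sites were chosen. The tally is therefore not a measure of robustness. Limiting peaks to a fold of at least 5 left 4 BATF control and 3 BATF RA peaks naming a member. Ranked by pileup among shared RARα control peaks, the Osgin1-Mlycd site came 11 and the Adprhl1-Grtp1 site 10, and without unplaced scaffolds, an alternative chosen after seeing the data, they came 2 and 1. By fold in the RA list the Adprhl1-Grtp1 site came 7. Peaks on the unplaced scaffold held many summit fragments at low folds, such as 3134 in the control at a fold of 1.14. Beyond this re-ranking, why values moved was not tested. A p-value of 1e-05, a q-value of 0.05 (from a column that the file headers call not calculated) or a fold of at least 5 each removed the RARα peak in Dcun1d2 and left 2 RARα control peaks. Motifs were not run, since no genome sequence was used here. With 1 pool per condition, depth and pool efficiency limit every comparison with RA.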
